A study of Mus musculus with 4 samples.

Results

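Immune checkpoints are pairs of surface proteins through which one cell restrains another: PD-L1 (Cd274) and PD-L2 (Pdcd1lg2) engage PD-1 (Pdcd1) on T cells, CTLA-4 competes with CD28 for the B7 ligands, and CD47 engages SIRPα on phagocytes, which restrains engulfment. Costimulatory receptors of the TNF receptor family, OX40 (Tnfrsf4) and 4-1BB (Tnfrsf9), act in the opposite direction and promote survival and effector function of activated T cells. In brain tumors the ligands are known from myeloid and dendritic cells as well as from tumor cells, and the receptors from infiltrating lymphocytes, among them regulatory T cells.

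The expression of 10 such genes (Cd274, Pdcd1lg2, Cd47, Sirpa, Pdcd1, Ctla4, Lag3, Havcr2, Tnfrsf4 and Tnfrsf9), chosen by name from 21861 measured features, was examined in single-cell RNA-seq of brain tumors from 4 hGFAP-cre::TP53Fl/Fl::lsl-MYCN mice. In this model Cre is driven by the hGFAP promoter in neural precursors, removes Trp53 and switches on human MYCN together with luciferase, so that all alleles are shared by both age groups and no tumor-free brain was included. Mice 4 and 5 were 43 days old (P43) and mice 6 and 7 were 70 days old (P70), with 1 library per mouse. The question was in which cells each gene was detected, and how its level differed between P43 and P70 per mouse. Age cannot be told apart from any difference in preparation between the libraries of each age, and p-values measure only the spread between these mice.

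After filtering, 10975 cells remained (1456 to 3469 per mouse), with total UMI (unique molecular identifier) counts of 13106786 to 40621958 per library and median UMIs per cell of 1419 to 10449. Cells were clustered without the 10 genes and their partner genes, and classes were named from marker lists, so that they are rebuilt names and not the annotation of the study. The classes used here were oligodendrocyte-like (OL-like) and neuroblast-like (NB-like) tumor cells, endothelial cells (EC), mural cells, a myeloid class in which 8 of 10 macrophage markers were raised, a dendritic cell (DC) class that joins conventional (cDC), migratory and plasmacytoid (pDC) cells, and a T/NK class in which 8 of 8 T cell markers were raised. Mouse 4 carries the label female but had 221 CPM (the UMIs of a gene scaled by all UMIs of the cells summed) over 4 Y-linked genes outside tumor cells, and mouse 5 carries the label male but had 0.528 CPM. Both are P43 mice, so an exchange of the pair would leave the age groups as they are. Each pair of libraries shared 1 to 3 cell barcodes.

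Class sizes differed strongly between the mice, which sets the precision of every value. The myeloid class held 53, 65, 799 and 144 cells in mice 4, 5, 6 and 7, DC 74, 74, 482 and 68 cells, and T/NK 66, 154, 108 and 22 cells. OL-like tumor cells numbered 2177, 277, 435 and 2204, with median UMIs of 1323, 19336, 4614 and 11849.5. Levels are given as CPM of the summed UMIs of a class in a mouse, where intervals cover counting error only, and were not compared between genes.

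The promoters of the genes whose T/NK level was higher at P70, and of Cd274, are shown for their motif matches. RefSeq (GRCm38.p6) gave a start for 8 of the 10 genes, and 2 starts each for Tnfrsf9 and Cd47. Each sequence runs 5′ to 3′ on the strand of the gene from 250 bases before to 50 after a start. Capitals mark matches, on either strand, to a gamma-activated site (GAS, TTCNNNGAA), an interferon regulatory factor element (IRF, GAAANNGAA) or an NF-κB element (κB, GGGANNTCC).
Cd274, chr19:29367188-29367487, + strand: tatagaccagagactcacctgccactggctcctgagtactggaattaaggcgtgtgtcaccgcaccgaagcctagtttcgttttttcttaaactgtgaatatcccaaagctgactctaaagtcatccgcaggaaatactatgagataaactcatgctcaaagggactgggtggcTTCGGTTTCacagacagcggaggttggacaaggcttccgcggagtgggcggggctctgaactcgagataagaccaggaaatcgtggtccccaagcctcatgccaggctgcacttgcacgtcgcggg
Ctla4, chr1:60908775-60909074, + strand: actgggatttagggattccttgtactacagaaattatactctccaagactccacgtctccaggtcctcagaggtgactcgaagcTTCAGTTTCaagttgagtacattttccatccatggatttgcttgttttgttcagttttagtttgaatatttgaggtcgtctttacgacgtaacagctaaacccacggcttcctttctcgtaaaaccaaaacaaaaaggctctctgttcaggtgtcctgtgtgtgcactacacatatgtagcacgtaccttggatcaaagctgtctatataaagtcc
Tnfrsf4, chr4:156013445-156013744, + strand: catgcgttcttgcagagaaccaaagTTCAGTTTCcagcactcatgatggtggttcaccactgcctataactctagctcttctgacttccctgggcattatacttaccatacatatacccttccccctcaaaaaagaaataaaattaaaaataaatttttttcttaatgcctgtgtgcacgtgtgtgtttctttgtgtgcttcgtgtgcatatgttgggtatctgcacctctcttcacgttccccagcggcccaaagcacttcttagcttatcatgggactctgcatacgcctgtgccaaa
Tnfrsf9, chr4:150927749-150928048, + strand: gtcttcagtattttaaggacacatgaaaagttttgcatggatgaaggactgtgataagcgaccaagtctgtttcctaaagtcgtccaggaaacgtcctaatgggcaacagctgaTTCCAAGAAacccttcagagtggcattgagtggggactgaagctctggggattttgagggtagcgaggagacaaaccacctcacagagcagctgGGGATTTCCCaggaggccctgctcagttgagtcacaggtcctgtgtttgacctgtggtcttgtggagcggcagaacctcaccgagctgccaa
The IRF letters lay on the opposite strand at −76 to −68 of Cd274, at −166 to −158 of Ctla4 and at −225 to −217 of Tnfrsf4, counted from the start. Of the 2 starts of Tnfrsf9, the one shown held a GAS match at −136 to −128 and a pair of overlapping κB matches from −42 to −33. The other, chr4:150919905-150920204, held 0 matches and is not shown. Of the 8 genes with a start, 4 held a match in at least 1 window. Of 32544 promoters of the same length, 8.33% held a GAS, 8.53% an IRF and 4.32% a κB match. Each of these shares is for 1 motif in 1 window. The share with any of the motifs in any window of a gene was not computed, so the count of 4 of 8 genes cannot be set against them. The windows of Pdcd1lg2, Pdcd1, Havcr2 and Cd47 did not hold these letters, and Lag3 and Sirpa were not analysed here for promoters.

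PD-L1 (Cd274, ENSMUSG00000016496, chr19:29367455-29388095, + strand, GRCm38) lies 22.8 kb from Pdcd1lg2 and was detected mainly in migratory DC and myeloid cells. In the myeloid class it reached 74.9 and 9.84 CPM in P43 mice 4 and 5 and 130.8 and 41.6 CPM in P70 mice 6 and 7. The age groups overlapped, and of the 15 UMIs of mouse 4, 12 came from 1 cell. In migratory DC the values were 176, 236, 285 and 74.0 CPM from 10, 16, 223 and 3 UMIs, against 0, 8.22, 71.4 and 6.90 CPM in cDC of the same mice. In each mouse migratory DC thus stood above cDC.

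OL-like tumor cells held 0.619, 0.607, 2.32 and 0.782 CPM of Cd274, and EC 8.32, 10.7, 11.9 and 8.34 CPM. With the mouse as a block, edgeR's quasi-likelihood test (adjusted p by Benjamini-Hochberg over all genes tested) gave a log2 difference of 6.14 (SE 0.40, adjusted p = 7.07e-07) for myeloid against OL-like cells, where 62.1% of 11259 genes passed and 23.8% passed as higher in myeloid cells. For EC against OL-like cells it gave 3.33 (SE 0.49, adjusted p = 0.00119), where 56.5% of genes passed. Such shares mean that a difference between these classes is common among all genes. Over 6 pairs of classes, 16 of 23 tests of the 10 genes passed. A gene nearly absent from one class, as Cd274 was from OL-like cells, passed the filter on low counts only through the other, and so had to differ.

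Macrophage markers summed to 42.6 CPM in OL-like cells of mouse 6, the library with the highest Cd274 in that class, and to 11.2, 4.85 and 3.84 CPM in mice 4, 5 and 7. The part of this in the tumor cell values was not tested. Migratory DC exceeded cDC in Cd274 by 2.67 on the log2 scale (SE 0.58, adjusted p = 0.0206, mice 4, 6 and 7), where 13.3% of genes passed. Without the mouse block this call was lost (adjusted p = 0.0977). In mouse 4, 67.6% of the cells in the migratory class lay in a sub-cluster of low depth led by Cxcl9 and Serpina3g. DC as a whole did not differ detectably from myeloid cells in Cd274 (log2 difference −0.03, adjusted p = 0.976), where 21.2% of genes passed, nor did T/NK cells, with 17.1, 35.7, 59.1 and 0 CPM (−0.96, SE 0.48, adjusted p = 0.144).

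Among the immune sub-clusters of mouse 6, Cd274 was at 306 CPM in migratory DC led by Fscn1 and Ccr7, at 273 CPM in the sub-cluster led by Slfn4 and Stard9, and at 231 CPM in that led by the interferon-induced genes Cxcl10 and Rsad2. It was at 205 CPM in cells led by Sct and Timd4, at 182 CPM in macrophages led by Saa3 and Ly6i, at 91.6 CPM in macrophages led by Apoe and Spp1 and at 33.6 CPM in cDC1. The value of the Slfn4-led cells rests on 37 UMIs. Those cells had a median of 840 UMIs and of 8.76% mitochondrial UMIs, against 4622 UMIs and 1.26% in the Fscn1-led cells. For thinned shares, cells with fewer than 2000 UMIs were left out and the others were thinned to 2000 UMIs. Of these, 5.88, 3.17, 21.3 and 6.74% of myeloid cells held a Cd274 UMI in mice 4, 5, 6 and 7. The shares of OL-like cells were 0.129, 0, 0 and 0.140%. In migratory DC of mouse 6 the share was 32.1% thinned and, over all cells, 55.3% unthinned. Thinned and unthinned shares thus rest on different sets of cells.

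Pdcd1lg2 (PD-L2, ENSMUSG00000016498, chr19:29410919-29471161, + strand), the other PD-1 ligand, was sparse. Migratory DC held 35.2, 118, 34.5 and 0 CPM in mice 4, 5, 6 and 7, from 2, 8, 27 and 0 UMIs. T/NK cells held 17.1, 2.10, 42.2 and 39.3 CPM from 3, 1, 15 and 1 UMIs, and all OL-like cells together 2 UMIs. At these counts the order of migratory DC and T/NK cannot be read. In migratory DC of mouse 6, 15 of the 18 cells with a Pdcd1lg2 UMI also held Cd274, where 9.95 would be the product of both shares. These cells were not thinned, and the part of depth was not tested.

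**Figure D1:**
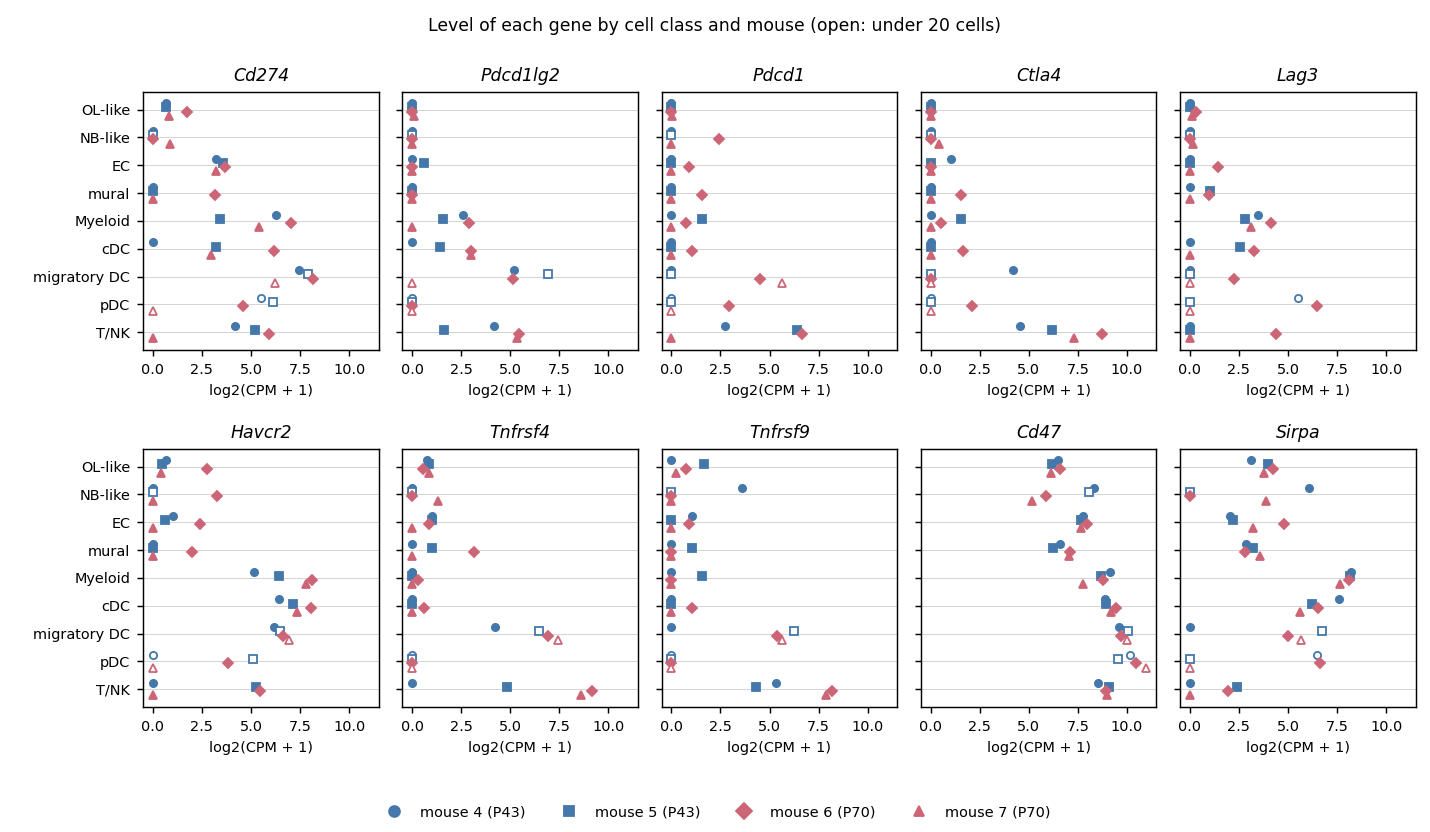
Level of each of the 10 genes by cell class in mice 4 and 5 (P43) and mice 6 and 7 (P70). The y axis is log2(CPM + 1) of summed UMIs, each symbol is 1 mouse, and open symbols stand on fewer than 20 cells. Cd47 is present in every class, Sirpa and Havcr2 stand highest in myeloid and dendritic classes, and Ctla4, Tnfrsf4, Tnfrsf9 and Pdcd1 are near 0 in OL-like cells.

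CD47 (ENSMUSG00000055447, chr16:49800533-49915010, + strand), the ligand that restrains phagocytes, had a ready signal in tumor cells. Of the 10 genes, only Cd47 and Sirpa passed the filter on low counts for the test with age in OL-like cells. OL-like cells held 88.6, 71.8, 94.7 and 69.1 CPM (mean 81.0 ± 12.5, SD, n = 4 mice). Among the 6 classes tested with age, the other means in ascending order were those of mural cells (109 ± 28.3), EC (216 ± 24.9), myeloid cells (408 ± 143), T/NK cells (476 ± 78.1) and DC (668 ± 110). Outside these, mature oligodendrocytes that were not taken as tumor cells held 406 ± 106 CPM (n = 3 mice). Plasmacytoid cells, a part of DC, held 1428 CPM in mouse 6. Over the mice, OL-like cells overlapped with mural cells, EC with myeloid cells, and myeloid cells with T/NK cells and with DC. NB-like tumor cells held 320 and 263 CPM at P43 from 66 and 8 cells, and 57.0 and 34.6 CPM at P70 from 27 and 587 cells. These NB-like cells from mouse 4 (median 992.5 UMIs) had an OL-like marker sum of 1899 CPM, beside 1905 CPM for the OL-like cells there, whereas the NB-like sums from mice 5, 6 and 7 were 49.36, 8.776 and 42.1 CPM, and the part of this in the Cd47 values was not tested.

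Cd47 was higher in EC than in OL-like cells by 1.44 on the log2 scale (SE 0.17, adjusted p = 0.00042), in myeloid cells by 2.56 (SE 0.23, adjusted p = 4.81e-06) and in T/NK cells by 2.52 (SE 0.33, adjusted p = 3.91e-13), where 48.2% of genes passed in the last. P-values of T/NK against OL-like cells matched a normal curve for the given SE, which makes no allowance for the low number of mice. DC exceeded myeloid cells by 0.78 (SE 0.21, adjusted p = 0.0203), a call lost without mouse 6 and without the mouse block. T/NK against myeloid cells gave −0.15 (adjusted p = 0.67), where 33.9% of genes passed. Within DC, migratory cells (775, 1049, 825 and 1012 CPM) stood above cDC (477, 492, 689 and 586 CPM) in every mouse, yet the test over 3 mice missed the threshold (0.57, adjusted p = 0.162).

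The receptor of Cd47, SIRPα (Sirpa, ENSMUSG00000037902, chr2:129592835-129632228, + strand), carries inhibitory motifs that recruit the phosphatases SHP-1 and SHP-2. It was highest in the myeloid class, at 295, 283, 274 and 200 CPM in mice 4, 5, 6 and 7 (mean 263 ± 42.9, SD, n = 4). DC held 138, 72.3, 75.4 and 47.2 CPM and OL-like cells 7.73, 14.8, 17.8 and 12.7 CPM. The 3 classes did not overlap.

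Myeloid cells exceeded OL-like cells in Sirpa by 4.63 on the log2 scale (SE 0.27, adjusted p = 4.71e-07). DC were below myeloid cells by −1.73 (SE 0.19, adjusted p = 9.24e-05). T/NK cells held 3 Sirpa UMIs in all and were below myeloid cells by −6.85 (SE 0.43, adjusted p = 5.61e-09). T/NK cells were also below OL-like cells by −2.25 (SE 0.85, adjusted p = 0.0200), a call lost without mouse 4, without mouse 5 or without mouse 6. In both tests Sirpa passed the filter on low counts through the class compared with T/NK cells. Both calls are thus a description only. EC and OL-like cells did not differ detectably in Sirpa (−0.63, adjusted p = 0.353).

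Within DC of mouse 6 the Sirpa signal divided along the known split of conventional DC. The cDC2 sub-cluster led by Epcam and Ifitm1 held 129.9 CPM from 145 UMIs, while cDC1 led by Xcr1 held 0 of 475686 UMIs. Against a floor of 3 counts, 6.31 CPM, cDC2 were at least 20.6-fold higher. In the sub-clusters of mouse 6 that held most of the myeloid class, the level was 155.3 CPM in cells led by Cxcl10 and Rsad2, 258 CPM in cells led by Treml4, 299 CPM in macrophages led by Saa3 and 327 CPM in those led by Apoe.

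PD-1 (Pdcd1, ENSMUSG00000026285, chr1:94038305-94052553, − strand), the inhibitory receptor of Cd274 and Pdcd1lg2, was a T/NK gene in these tumors. T/NK cells held 5.69, 83.9, 101 and 0 CPM in mice 4, 5, 6 and 7, from 1, 40, 36 and 0 UMIs. The age groups overlapped, with 1 high and 1 low mouse in each. All OL-like cells together held 1 UMI, against 74.49 CPM over all T/NK cells. In mouse 5, 33 of the 40 UMIs lay in a T cell sub-cluster led by Il17a (127 CPM), whereas in mouse 6 all 36 lay in the T cell sub-cluster led by Gimap4 (152 CPM). Migratory DC added 17 UMIs in 9 cells of mouse 6.

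CTLA-4 (Ctla4, ENSMUSG00000026011, chr1:60887000-60915832, + strand), which binds B7 ligands in competition with CD28, was detected in T/NK cells at 22.8 and 71.3 CPM in P43 mice 4 and 5 and at 419 and 157 CPM in P70 mice 6 and 7. Both P70 mice stood above both P43 mice, on 4, 34, 149 and 4 UMIs. In T/NK cells 41.1% of all genes tested did not overlap between the ages, in either direction, so that separation of 2 against 2 mice was common. OL-like cells held 0 of 47115924 UMIs, so that the 184.8 CPM over all T/NK cells were at least 2900-fold higher than the floor of 3 counts (0.0637 CPM). The difference passed in edgeR, as it had to, since Ctla4 passed the filter on low counts only through T/NK cells. The bound was 884-fold without mouse 6 and 1170-fold without mouse 7, as tried after the data were seen. In mouse 6 the T cell sub-cluster held 566 CPM and NK cells 86.6 CPM.

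LAG-3 (Lag3, ENSMUSG00000030124, chr6:124904361-124911705, − strand), an inhibitory receptor that binds MHC class II, had most of its UMIs outside T/NK cells. T/NK cells held 7 UMIs, all in mouse 6 (19.7 CPM). Their counts of 0 in mice 4, 5 and 7 allow levels of up to 17.1, 6.29 and 118 CPM. Myeloid cells held 9.99, 5.91, 16.8 and 7.80 CPM from 2, 3, 76 and 3 UMIs, and pDC of mouse 6 held 87.0 CPM from 26 UMIs. By level, T/NK cells of mouse 6 were thus not below its myeloid cells. Macrophages led by Apoe and Spp1 held 72 UMIs in mouse 6 (37.9 CPM). The sub-cluster led by Cxcl10 and Rsad2 held 0 of 837170 UMIs, which allows a level of up to 4.41 CPM by the same interval.

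Myeloid cells exceeded OL-like cells, which held 3 UMIs in all, in Lag3 by 7.10 on the log2 scale (SE 0.81, adjusted p = 2.78e-05). Lag3 passed the filter on low counts only through myeloid cells, and so had to differ. Across classes and mice, the genes most like Lag3 by Pearson's r of log2(CPM + 5) over 39 sums of at least 20 cells were Tlr7 (0.852), Lair1 (0.835) and Hpse (0.811), given as a description since the sums share libraries and depth. Lag3 itself did not reach the level asked of the genes compared, 20 CPM in at least 3 sums.

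TIM-3 (Havcr2, ENSMUSG00000020399, chr11:46454935-46481255, + strand), known as an exhaustion receptor of T cells and also as a receptor of DC and macrophages, was above all a myeloid and DC gene here. The myeloid class held 34.97 and 84.6 CPM in P43 mice 4 and 5 and 271 and 221 CPM in P70 mice 6 and 7, from 7, 43, 1224 and 85 UMIs. Both P70 mice lay above both P43 mice, where 42.3% of all genes tested in the class did not overlap in either direction. In cDC the values were 86.1, 141, 268 and 159 CPM. T/NK cells held 0, 37.7, 42.2 and 0 CPM, and 17 of the 18 UMIs of mouse 5 lay in the Il17a sub-cluster.

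In Havcr2, myeloid cells exceeded OL-like cells by 7.36 on the log2 scale (SE 0.65, adjusted p = 4.47e-06). Havcr2 passed the filter on low counts there through myeloid cells, and so had to differ. T/NK cells were below myeloid cells by −2.57 (SE 0.41, adjusted p = 0.000109), whereas DC and myeloid cells (−0.02, adjusted p = 0.979) and migratory DC and cDC (−0.93, adjusted p = 0.141) did not differ detectably. Among myeloid cells with at least 2000 UMIs, thinned to 2000, 5.88, 14.3, 39.24 and 33.7% held a Havcr2 UMI in mice 4, 5, 6 and 7. Over all myeloid cells, unthinned, the shares were 11.3, 36.9, 66.2 and 38.9%. OL-like cells stood at 0, 0, 2.06 and 0% thinned, where mouse 6 was also the library with the most macrophage marker UMIs in that class. The median depth of the myeloid cells was 3757, 7662, 5389 and 2321.5 UMIs.

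OX40 (Tnfrsf4, ENSMUSG00000029075, chr4:156013843-156016612, + strand), which costimulates activated T cells and is high on mouse regulatory T cells, had the widest range over mice of the T/NK genes. T/NK cells held 0 and 27.3 CPM in P43 mice 4 and 5 and 574 and 393 CPM in P70 mice 6 and 7, from 0, 13, 204 and 10 UMIs. The age groups did not overlap, but all 10 UMIs of mouse 7 came from 1 cell and 11 of the 13 of mouse 5 from 2 cells with a Foxp3 UMI. Migratory DC held 17.6, 88.6, 120 and 173 CPM from 1, 6, 94 and 7 UMIs. Myeloid cells held 0, 0, 0.221 and 0 CPM, and OL-like cells 36 UMIs in all. The pooled T/NK level was 287-fold above that of OL-like cells, and 42.7-fold without mouse 6 and 506-fold without mouse 5, as tried after the data were seen.

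4-1BB (Tnfrsf9, ENSMUSG00000028965, chr4:150914562-150946102, + strand), a costimulatory receptor of activated T and NK cells, was lower in T/NK cells of P43 mice 4 and 5, with 39.8 and 18.9 CPM, than of P70 mice 6 and 7, with 287 and 236 CPM. Both P70 mice stood above both P43 mice, on 7, 9, 102 and 6 UMIs. In mouse 6 both lymphoid sub-clusters held it, at 325 CPM in T cells and 202 CPM in NK cells. T/NK cells exceeded OL-like cells by 7.28 on the log2 scale (SE 0.56, adjusted p = 2.1e-36). Tnfrsf9 passed the filter on low counts only through T/NK cells, and so had to differ. The p-value matched a normal curve for that SE, with no allowance for the low number of mice. The all-gene median of that comparison was −0.309, and −0.546 with RLE factors in place of TMM.

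**Figure D2:**
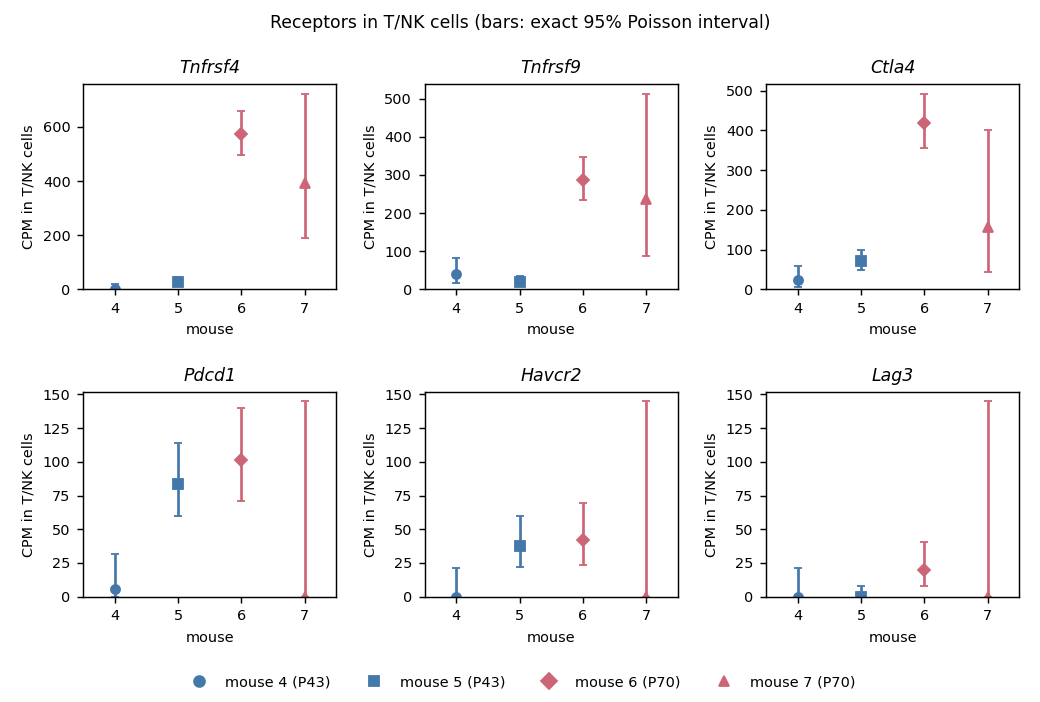
CPM of Tnfrsf4, Tnfrsf9, Ctla4, Pdcd1, Havcr2 and Lag3 in the T/NK class of each mouse, with mice 4 and 5 at P43 and mice 6 and 7 at P70. Bars are exact 95% Poisson intervals of the UMI sum and cover counting error only. For Tnfrsf4, Tnfrsf9 and Ctla4 both P70 mice stand above both P43 mice, while Pdcd1 is high in mice 5 and 6 alone.

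The comparison of P70 with P43 gave 21 tests of the 10 genes in 6 classes, of which 4 passed. Of these, 3 were in T/NK cells: Tnfrsf4 rose by 4.75 on the log2 scale (SE 0.59, adjusted p = 0.0211), Tnfrsf9 by 3.39 (SE 0.45, adjusted p = 0.0211) and Ctla4 by 2.69 (SE 0.50, adjusted p = 0.047). In this class 0.739% of 4599 genes passed, and 0.5% passed as higher at P70. The median over the 7 tested genes was 2.57, the value of Pdcd1lg2, beside −0.052 over all genes. Tnfrsf4 and Pdcd1lg2 passed the filter on low counts through their P70 values. This median, the Tnfrsf4 call and the count of calls thus depend on the filter and are a description only. Pdcd1 (0.66, SE 0.75), Havcr2 (0.59, SE 0.92), Cd47 (0.08) and Pdcd1lg2 (2.57, adjusted p = 0.363) did not pass.

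These 3 calls rested on mouse 6. Without it the adjusted p-values were 0.571, 0.571 and 0.672, and 0 of 3988 genes passed (301 at an unadjusted p under 0.05), while the differences were still 4.28, 2.92 and 1.39. With DESeq2, Tnfrsf9 passed (adjusted p = 0.0159) and Tnfrsf4 (0.134) and Ctla4 (0.0836) did not. Ctla4 was also lost when cells of up to 60000 UMIs were kept (0.148), and Tnfrsf9 with equal cell numbers (0.0996). Makeup differed too: NK cells formed 40.7% of the T/NK class of mouse 6 and 12.1% of that of mouse 4, Il17a-led T cells 53.2% of that of mouse 5, and all 22 cells of mouse 7 lay in the Gimap4-led T cell sub-cluster. Within that sub-cluster alone, chosen after the data were seen and so given as a description, the same test gave adjusted p = 0.0254, 0.0254 and 0.035. There mice 4 and 5 held 0 and 12 UMIs of Tnfrsf4, 3 and 1 of Tnfrsf9, and 3 and 15 of Ctla4. Mouse 7 held 10, 6 and 4 UMIs of these genes. The part of makeup in the 3 calls was not tested.

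Cells with a UMI of Foxp3, the master regulator of regulatory T cells, numbered 0 of 66, 2 of 154, 12 of 108 and 0 of 22 T/NK cells in mice 4, 5, 6 and 7. In mouse 6, 11 of them also held a Cd3 UMI, and in these Tnfrsf4 was at 2002 CPM, Ctla4 at 1175 CPM and Tnfrsf9 at 708 CPM. The 43 cells with Cd3 but no Foxp3 UMI held 273, 309 and 164 CPM, while Pdcd1 was at 147 and 146 CPM in both. The median depth was 6763 UMIs in the first and 2607 in the second, and its part was not tested. Macrophage markers summed to 11.4, 10.5, 25.3 and 0 CPM in T/NK cells, with 9, 8, 5 and 10 of the 10 genes at 0.

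Markers of migratory DC, which also held Tnfrsf4 and Tnfrsf9 UMIs, summed to 79.7, 109, 129 and 78.5 CPM in T/NK cells, with Il4i1 and Cacnb3 at 0 in all 4 mice. Fscn1 and Ccl22 were at 0 in mice 4, 5 and 7 but were detected in mouse 6. The part of such cells or their RNA in the T/NK values was not tested. Within single cells of mouse 6, 19 of the 22 Cd3-positive cells with a Tnfrsf4 UMI also held Ctla4 (86.4%, exact binomial 95% interval 65.1 to 97.1%), where the product of both shares would give 11.4 cells. Thinned to 2000 UMIs, 12 of 16 such cells held both, where the product would give 7.8 cells. These are cells of 1 mouse and not replicates. Tnfrsf9 and Ctla4 were found together in 14 cells, where 9.33 would be the product. In mouse 5, Pdcd1 and Havcr2 were found together in 7 cells, where 2.88 would be the product. Cells were not thinned for the pairs of Tnfrsf9 with Ctla4 and of Pdcd1 with Havcr2, and the part of depth was not tested.

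In the myeloid class 0 of the 4 tested genes passed with age in edgeR, where 0.237% of 5492 genes did, and 1 had an unadjusted p under 0.05 and passed in DESeq2. This was Havcr2, with 2.02 on the log2 scale (SE 0.41, unadjusted p = 0.00128, adjusted p = 0.102 by edgeR and 0.00887 by DESeq2). Cd274 was at 1.55 (SE 0.83, adjusted p = 0.56), Cd47 at −0.48 (SE 0.36) and Sirpa at −0.19 (SE 0.28). The makeup of the class differed between the ages: cDC2-like cells led by Retnla and Mgl2 formed 26.4% and 32.3% in mice 4 and 5, and macrophages led by Apoe and Spp1 formed 34.0% and 61.1% in mice 6 and 7.

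Within the Apoe-led macrophages Havcr2 was at 145 CPM in mouse 5 (12 cells), 232 CPM in mouse 6 and 203 CPM in mouse 7, and in the Retnla-led cells, all from P43 mice, at 28.5 and 31.9 CPM. In the class as a whole the values of mice 5, 6 and 7 were 84.6, 271 and 221 CPM. Mouse 4 held only 3 Apoe-led macrophages and mouse 5 only 12. With so few P43 cells, the spread between mice within the macrophages cannot be set against that of the class. The part of makeup in the difference with age was not tested.

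In DC, 2.0% of 5688 genes passed with age and 0 of the 5 tested genes did in edgeR or DESeq2, with 2 at an unadjusted p under 0.05. Tnfrsf4 was at 3.95, 8.51, 32.4 and 36.7 CPM, without overlap between the ages, as held for 42.2% of all genes tested (log2 difference 2.17, SE 0.53, adjusted p = 0.0786). These values rest on 1, 6, 95 and 7 UMIs, of which 1, 6, 94 and 7 lay in migratory DC. Migratory DC were 34 of 74, 9 of 74, 161 of 482 and 15 of 68 DC in mice 4, 5, 6 and 7. The part of this makeup in the DC values was not tested. Cd274 was at 43.4, 32.6, 123.5 and 21.0 CPM (1.29, SE 0.56, adjusted p = 0.342), and its P70 mice lay on either side of the P43 mice. The median over the 5 genes was 0.703, beside −0.005 over all genes. Here too Tnfrsf4 passed the filter on low counts through its P70 values.

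**Figure D3:**
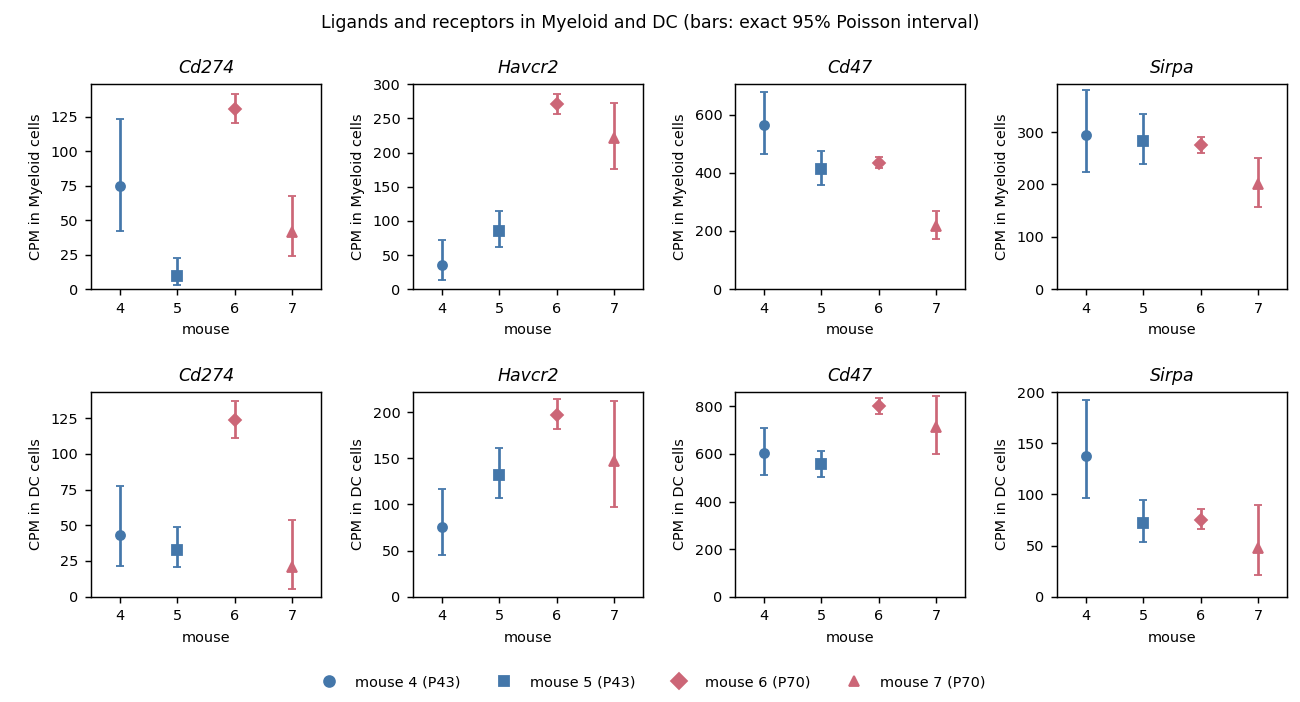
CPM of Cd274, Havcr2, Cd47 and Sirpa in the myeloid class (top) and in DC (bottom) of each mouse, with exact 95% Poisson intervals of the UMI sums. Havcr2 is higher in both P70 mice in both classes, while Cd274 is highest in mouse 6 in both and lowest in mouse 5 in myeloid cells and in mouse 7 in DC.

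OL-like tumor cells gave 2 tests with age, Cd47 at −0.01 (SE 0.26) and Sirpa at 0.40 (SE 0.45), 0 of which passed in edgeR or DESeq2 or had an unadjusted p under 0.05. There 0.0% of 11718 genes passed in edgeR, with 570 at an unadjusted p under 0.05 and 60 passing in DESeq2. In EC, where 5.0% of genes passed, Cd47 (0.28, SE 0.25, adjusted p = 0.625) and Cd274 (0.34, SE 0.55) did not.

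The fourth call was Cd47 in mural cells, the pericytes and smooth muscle cells of vessels, at 94.8, 75.2, 134 and 130 CPM. Both P70 mice lay above both P43 mice, by 0.88 on the log2 scale (SE 0.23, adjusted p = 0.0176). The background here was high, since 18.7% of 8518 genes passed and 59.3% did not overlap between the ages, and the call was lost in DESeq2 (adjusted p = 0.435), with equal cell numbers (0.519) and without any 1 of the mice (0.106 to 0.435). T cell markers summed to 3.16, 0, 16.8 and 97.3 CPM and macrophage markers to 7.90, 12.5, 89.8 and 10.8 CPM in mural cells, and the part of either was not tested.

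**Figure D4:**
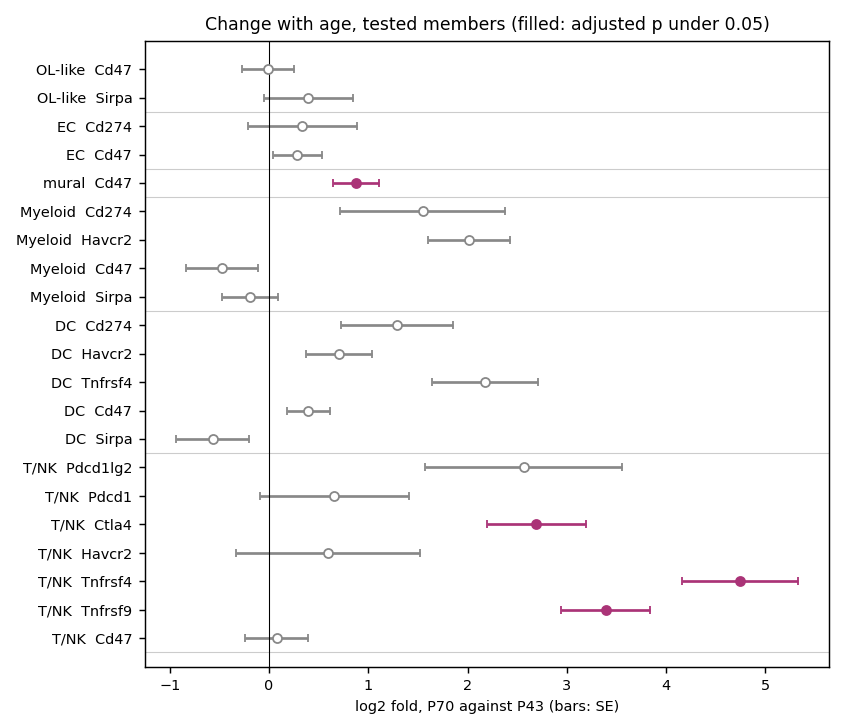
Difference between P70 and P43 on the log2 scale, with its SE, for the 21 tests of the 10 genes in 6 classes. Filled points passed at an adjusted p under 0.05, which were Tnfrsf4, Tnfrsf9 and Ctla4 in T/NK cells and Cd47 in mural cells.

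Whether the change with age differed between classes was tested for myeloid against OL-like cells (0.455% of 12302 genes passed) and DC against myeloid cells (0.3% of 6339). Of the 11 tests of the 10 genes, 0 passed in edgeR or DESeq2, with 2 at an unadjusted p under 0.05, both for DC against myeloid cells. Havcr2 was at −1.37 for DC against myeloid cells (SE 0.35, adjusted p = 0.151). A difference in change between T/NK cells and the other classes was not tested.

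Over the 39 class sums, the levels of most of the 10 genes ran closest to those of immune cell genes, in the same measure as used for Lag3. Cd274 had the interferon-induced genes Oasl1 (0.895), Dhx58 (0.865) and Usp18 (0.86) as its nearest, and Pdcd1lg2 had Phf11c (0.89), Klrk1 (0.871) and Serpina3g (0.854). Cd47 went with Grb2 (0.82), Smap2 (0.818) and Sh3bgrl3 (0.808), and Sirpa with the myeloid genes Cebpa (0.884), Csf1r (0.879) and Cd300ld (0.849). Among the receptors, Pdcd1 went with Il27ra (0.83), Klra7 (0.823) and Areg (0.787), Ctla4 with Izumo1r (0.963), Cd5 (0.948) and Sh2d2a (0.941), and Havcr2 with Snx20 (0.947), Cd72 (0.943) and Casp1 (0.938). Tnfrsf4 had Tnfrsf9 (0.875), Cblb (0.844) and Slamf1 (0.829) as its nearest, and Tnfrsf9 had Slamf1 (0.928), Sidt1 (0.918) and Gpr174 (0.898). The r values are across sums that share mice, over 11180 genes compared, with no test.

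**Figure D5:**
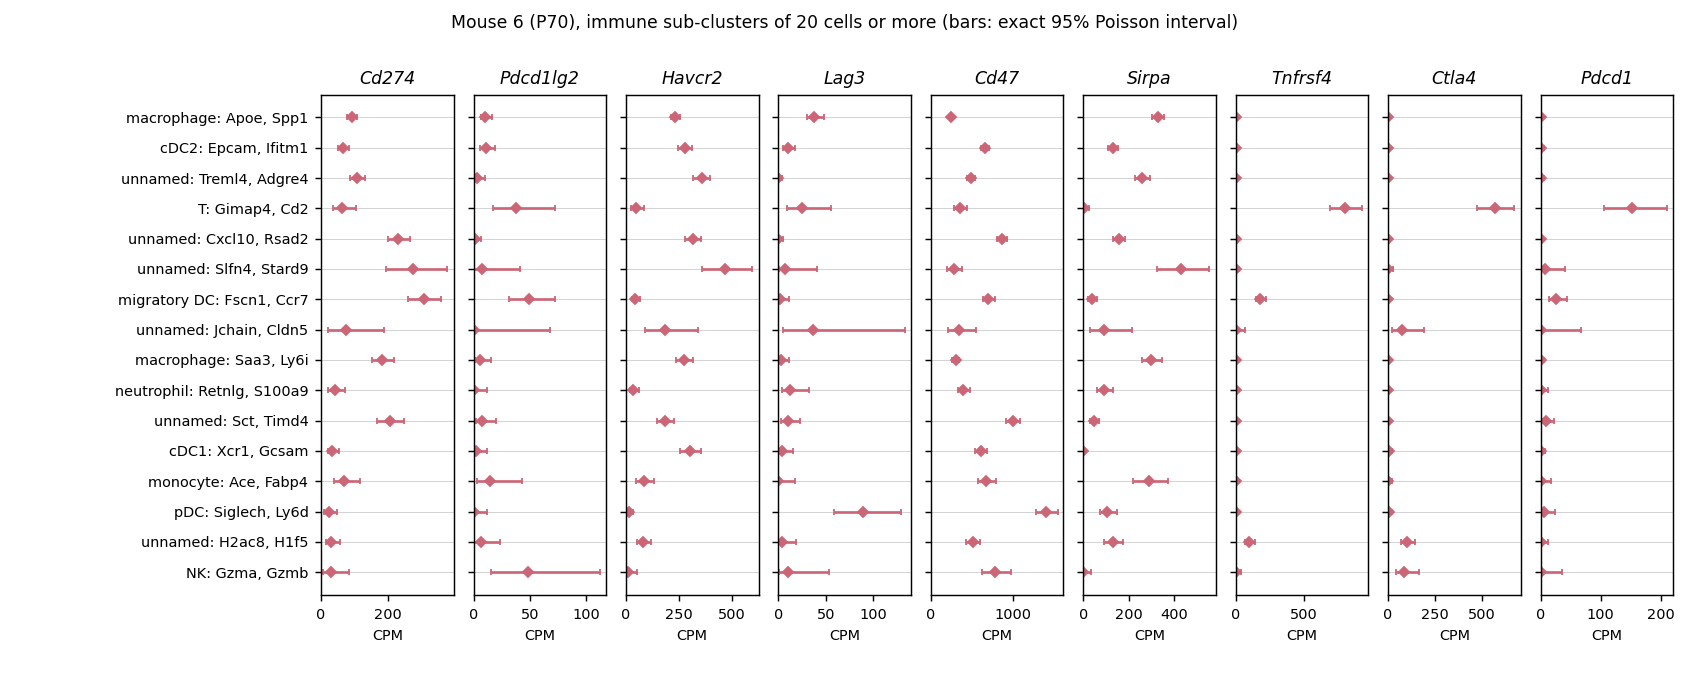
CPM of 9 of the 10 genes in the 16 immune sub-clusters of mouse 6 that held at least 20 cells. Cd274 is spread over migratory DC and several myeloid sub-clusters, Lag3 is highest in pDC, and Tnfrsf4 and Ctla4 are highest in the T cell sub-cluster.

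Of 44 listed partner genes (other B7 and CD28 members, TNF family costimulators, further inhibitory receptors and ligands, the CD47 axis and regulators of PD-L1), 43 were in the files. Against OL-like cells, 26 of 26 tested passed in myeloid cells, 25 of them higher and the chaperone gene Calr lower. In EC 15 of 18 and in T/NK cells 23 of 26 passed, all of these higher. Over all genes 62.1, 56.5 and 48.2% passed in either direction, and 23.8% passed as higher in myeloid cells. A partner gene nearly absent from OL-like cells passed the filter on low counts only through the other class, and so had to differ. The counts against OL-like cells are thus a description only. With age 14 of 122 tests passed: 0 of 20 in OL-like cells, 0 of 21 in T/NK, 1 of 24 in myeloid cells, 1 of 23 in DC, 3 of 17 in EC and 9 of 17 in mural cells. Over all genes the shares with age were 0.237% in myeloid cells, 2.0% in DC, 5.0% in EC and 18.7% in mural cells. A partner gene low at one age could pass the filter through the other, so that the counts with age also depend on the filter. The myeloid gene was Thbs1, a secreted CD47 ligand (4.38 on the log2 scale, SE 0.31, adjusted p = 0.0047), and the DC gene was Cd80, a ligand of CTLA-4 and CD28 (2.43, adjusted p = 0.0217). DESeq2 passed 1 partner gene in myeloid cells, 0 in DC, 1 in EC, 5 in mural cells and 0 in OL-like and T/NK cells, where edgeR gave 3 and 8 at an unadjusted p under 0.05.

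In mural cells the 9 partner genes were all higher at P70, among them Thbs1 (4.18 on the log2 scale), Cd276 (3.72), Tnfsf9, the ligand of 4-1BB (2.87), Irf1 (2.75), Lgals9, a ligand of TIM-3 (2.54), Ifngr2 (1.62), Nectin2 (1.44) and Stat3 (1.22). The share of all mural genes that passed as higher at P70 is not given here, so that this shared direction cannot be set against it. A gene low at P43 could pass the filter on low counts through its P70 values, so that the count of 9 is a description only. Each of these mural calls was lost under at least 1 alternative. Nectin2 was lost in DESeq2 and without any 1 of the mice. Irf1, Lgals9 and Ifngr2 were lost without mouse 6, and Cd276, Thbs1 and Tnfsf9 without mouse 7. In EC Nectin2 (2.80) and Ifngr2 (1.17) were higher and Ceacam1 lower (−1.47). Of 10 T cell state genes tested in T/NK cells, 0 passed with age in edgeR or DESeq2 and 3 had an unadjusted p under 0.05, with the cytotoxic granule gene Gzmb at 2.79 (adjusted p = 0.088) and Cxcr6 at −2.38 (adjusted p = 0.052). Levels of Gzmb in mice 4, 5, 6 and 7 were 170.7, 50.32, 944.8 and 235.6 CPM, and those of Cxcr6 were 347.1, 616.5, 75.92 and 196.3 CPM. Neither gene overlapped between the ages, as held for 41.1% of all genes tested in T/NK cells. GITR (Tnfrsf18), a costimulatory receptor related to OX40 picked for its observed values and so given as a description, held 148.0, 52.42, 565.2 and 392.6 CPM in T/NK cells and did not pass (log2 difference 2.46, SE 0.49, adjusted p = 0.0518). The other state genes overlapped in level between the ages, apart from Tcf7 at 108.1, 83.87, 222.1 and 117.8 CPM, Nr4a1 at 91.05, 115.3, 129.4 and 314.1 CPM and Pdcd4 at 375.6, 392.1, 368.4 and 274.8 CPM. Foxp3 did not pass the filter on low counts there and was not tested.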

How the data were processed

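Brain tumors of 2 mice per age were dissociated, cryopreserved as cell suspensions after lysis of red blood cells, sorted for cells negative for 7-AAD, and made into 3′ v3.1 Chromium libraries by the authors. The deposited values are raw UMI counts per gene and cell barcode, made by the authors with Cell Ranger 6.0.2 on the mm10 mouse reference with human MYCN and luciferase added. From these counts, cells with at least 200 genes, at most 40000 UMIs and less than 25% mitochondrial UMIs were kept, integrated and clustered with Seurat 5.3.0 (2000 variable genes, 30 components, resolution 0.5), leaving out 17 variable genes that were among the 10 genes or their partners. Scrublet called 38 of 10975 cells as doublets, a share too low to have worked, so no cell was removed by it.

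Clusters with over 500 CPM of both added features together were taken as tumor cells. A cluster was named from 22 marker lists where at least 3 markers were raised (2-fold plus 10 CPM). The 2528 immune cells were clustered again into 20 sub-clusters. UMIs were summed per mouse and class (at least 20 cells for age, at least 10 for paired classes) and tested with edgeR 4.0.16 (quasi-likelihood, TMM, its filter on low counts), with age alone between ages and with the mouse as a block between classes of the same mice. Adjusted p-values are Benjamini-Hochberg over all genes tested, and calls are at 0.05. The pairing of classes comes from the mouse itself. A planned comparison of migratory DC with cDC2 was run against the cDC class, since cDC1 and cDC2 formed 1 cluster. Tests were checked on simulated data.

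The text names all 10 genes, partner genes that passed with age (1 is not reported here), T cell state genes with their T/NK levels, and for each of the 10 the 3 genes with the highest Pearson's r of log2(CPM + 5) over class sums of at least 20 cells, among genes at 20 CPM or more in at least 3 sums. The 10 genes and all lists were chosen with earlier results of these data known. DESeq2 1.42.0, RLE factors, other filters and cluster settings and leaving out each mouse were tried as alternatives. Libraries of other ages were not analysed here.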

Additional observations from a re-analysis of the deposited data

Results flagged for a closer look

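The change of Irf1, an interferon-induced transcription factor, differed between myeloid and OL-like tumor cells by −2.31 on the log2 scale (SE 0.60, adjusted p = 0.027 by edgeR's interaction test). It was singled out because the difference between the classes in their change with age passed the test. Myeloid cells held 185 and 98.4 CPM at P43 and 95.6 and 31.2 CPM at P70, while OL-like cells held 8.14 and 2.02 CPM at P43 and 8.80 and 13.4 CPM at P70. The call was lost in DESeq2, without mouse 5, without mouse 7 and when cells of up to 60000 UMIs were kept. P-values of this interaction matched a normal curve for the given SE, which makes no allowance for the low number of mice.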

How the results depend on the processing

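Of 20 calls of the 10 genes, 13 held under every alternative, 7 were lost under at least 1 and 0 reversed. All 13 that held were between classes, and all 4 calls with age were among the 7 lost. The 13 include Ctla4 and Tnfrsf9 in T/NK cells, Lag3, Havcr2 and Cd274 in myeloid cells and Cd274 in EC, each against OL-like cells. They also include Sirpa in T/NK against myeloid cells. All of these passed the filter on low counts through the higher class and so had to differ, so that their holding is no support. The 4 calls with age became 2 with DESeq2, 10 without a filter on low counts, 1 with equal cell numbers, and 0 to 8 when a mouse was left out, 0 without mouse 6 and 8 without mouse 7. The 16 calls between classes became 34 without the filter and 13 to 24 when a mouse was left out. Without the mouse as a replicate block they were 14, and the calls of Cd274 in migratory DC and of Cd47 in DC were lost. No paired analysis was possible between the ages because mice of different ages are different animals. Of the interactions 0 to 1 passed when a mouse was left out (Cd47 for DC and myeloid cells, without mouse 5). A lone mouse left in an age group was assumed to vary like the others. The share of myeloid cells of mouse 6 with a Havcr2 UMI, 39.24% when thinned to 2000 UMIs, was 23.02% at 1000 UMIs. It was 66.21% over all cells without thinning, whereas thinned shares leave out cells below the depth used. The share of Tnfrsf4 cells with Ctla4 in mouse 6 was 86.4%, and 75.0% on thinning.

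Differences that changed sign had all missed the threshold, and the cause was not tested. When each mouse was left out in turn, the log2 difference in DC against myeloid cells ran from −0.343 to 0.072 for Cd274 and from −0.307 to 0.245 for Havcr2, and in T/NK against myeloid cells from −0.251 to 0.141 for Cd47. With age the ranges were −0.81 to 1.789 for Cd274 in DC, −0.241 to 0.448 for Cd274 and −0.052 to 0.423 for Cd47 in EC, −0.458 to 0.032 for Sirpa in myeloid cells, −0.308 to 0.244 for Cd47 and −0.036 to 0.961 for Sirpa in OL-like cells, and −0.176 to 0.371 for Cd47 and −6.583 to 3.775 for Pdcd1 in T/NK cells. Among interactions they were −2.027 to 0.571 for Cd274 in DC and myeloid cells, and −0.925 to 1.819 for Cd274, −0.951 to 2.874 for Havcr2 and −3.121 to 0.957 for Pdcd1lg2 in myeloid and OL-like cells. Under other settings, Cd274 in DC against myeloid cells was 0.041 at resolution 1.0, and Havcr2 there was 0.054 with DESeq2, 0.047 under 10% mitochondrial UMIs, 0.043 at resolution 1.0 and 0.0 with the 10 genes kept in clustering. The change of Cd47 with age was 0.006 without the filter, 0.013 at 60000 UMIs and 0.069 without integration in OL-like cells, and −0.006 without the filter in T/NK cells. The interaction of Cd274 in myeloid and OL-like cells was 0.116 with DESeq2 and 0.489 under 10% mitochondrial UMIs, and that of Tnfrsf4 in DC and myeloid cells was −2.824 at resolution 1.0.

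Counts over all genes moved as well. The 34 genes that passed with age in T/NK cells were 13 with DESeq2, 115 without the filter, 3 at 60000 UMIs, 2 with equal cell numbers and 0 to 241 without a mouse. The 13 in myeloid cells were 67 with DESeq2, 284 without the filter, 4 at 60000 UMIs and 3 to 443 without a mouse. The 1590 in mural cells were 573 with DESeq2, 472 with equal cell numbers and 142 to 995 without a mouse, and the 114 in DC were 53 with equal cell numbers, 370 without the filter and 55 to 663 without a mouse. Depth limits the T/NK values, since Ctla4, Tnfrsf4, Tnfrsf9 and Pdcd1 rest on 10 or fewer UMIs each in mice 4 and 7.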
